A study of Mus musculus with 8 samples.

Results

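The genes described here encode the NADPH oxidase complex: the phagocyte subunits Cybb, Cyba, Ncf1 and Ncf4, the GTPase Rac2, and Nox4, a separate oxidase of stromal cells. They were taken as every array probe, control spots left out, whose transcript accession maps to 1 of these 6 symbols, which gave 11 of the 56413 probes analysed and 6 of the 29584 genes or unnamed features tested. All 11 probes passed the filter on dim probes, and 10 were well above background on all 8 arrays. The exception was a probe of Ncf1 described below. The rule selects by name and uses no measured value, although the set was proposed with earlier results of these data known.

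RNA came from cultured cells of C57BL/6 male mice that were 6 weeks old when feeding began. In the 4 groups, HF12 stands for 12 weeks on high-fat diet, C12 for 12 weeks on control chow, HF24 for 24 weeks on high-fat diet and C24 for 24 weeks on control chow. The high-fat diet held 60% fat. Abdominal subcutaneous fat was digested with collagenase, and the cells that adhered to plastic were passaged and taken by the submitters as mesenchymal stem cells. Each group had 2 one-colour arrays. The labels do not say whether these came from separate animals or cultures, so each p-value rests on a spread among arrays that may be technical alone. Their small number sets the precision.

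The phagocyte NADPH oxidase moves electrons from NADPH across a membrane to oxygen and makes superoxide. Cybb (gp91phox, also called NOX2) is the catalytic membrane subunit and Cyba (p22phox) its membrane partner, while Ncf1 (p47phox) and Ncf4 (p40phox) wait in the cytosol with the GTPase Rac2 and join the membrane pair on activation. Nox4 also needs Cyba but not the cytosolic subunits, releases mainly hydrogen peroxide, and is known from fibroblasts, vascular cells and adipocyte precursors, whereas the other subunits are known above all from macrophages and neutrophils.

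Promoter windows, from 250 bases before to 50 bases after each gene start, are shown because Cybb, Cyba and Ncf1 moved together while Nox4 did not. They are RefSeq sequences on build GRCm38.p6, read 5′ to 3′ on the gene's strand, for the 4 genes that had an entry. Capitals mark matches, on either strand, to GAGGAA, a core of the kind bound by PU.1, or to GGGCGG, the GC box. No match of one overlapped a match of the other.
Cybb, chrX:9469275-9469574, minus strand: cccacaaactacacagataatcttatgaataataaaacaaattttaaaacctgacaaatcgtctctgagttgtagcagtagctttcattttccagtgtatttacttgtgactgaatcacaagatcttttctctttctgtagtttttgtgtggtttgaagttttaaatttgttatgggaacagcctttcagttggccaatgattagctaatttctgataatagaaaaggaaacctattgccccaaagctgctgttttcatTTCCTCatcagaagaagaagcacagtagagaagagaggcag
Cyba, chr8:122432891-122433190, minus strand: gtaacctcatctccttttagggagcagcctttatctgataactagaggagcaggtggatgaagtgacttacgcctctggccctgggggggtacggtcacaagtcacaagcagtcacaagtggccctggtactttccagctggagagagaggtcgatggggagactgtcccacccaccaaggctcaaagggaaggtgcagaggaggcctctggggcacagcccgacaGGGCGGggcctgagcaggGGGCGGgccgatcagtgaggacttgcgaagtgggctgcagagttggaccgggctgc
Ncf1, chr5:134229576-134229875, minus strand: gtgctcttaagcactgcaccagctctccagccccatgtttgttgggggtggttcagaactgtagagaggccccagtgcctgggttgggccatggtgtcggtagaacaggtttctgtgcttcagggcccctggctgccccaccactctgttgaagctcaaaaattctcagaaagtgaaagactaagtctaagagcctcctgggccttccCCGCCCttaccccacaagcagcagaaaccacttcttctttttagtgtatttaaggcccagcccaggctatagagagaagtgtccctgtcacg
Nox4, chr7:87246399-87246698, plus strand: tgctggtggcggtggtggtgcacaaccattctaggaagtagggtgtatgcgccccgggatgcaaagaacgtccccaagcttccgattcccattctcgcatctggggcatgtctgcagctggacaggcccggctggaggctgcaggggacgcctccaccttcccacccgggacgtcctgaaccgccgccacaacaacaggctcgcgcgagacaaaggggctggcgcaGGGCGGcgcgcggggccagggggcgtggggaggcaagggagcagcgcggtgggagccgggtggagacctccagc
The Cybb window held 1 GAGGAA match, read as its reverse complement and starting 10 bases after the gene start, and no GC box. Its GC content was 35.3%. The Cyba window held 2 GC boxes, and the windows of Ncf1 and Nox4 held 1 each. GC content was 60.7% for Cyba, 54% for Ncf1 and 68.3% for Nox4. Over 32851 promoter windows of the same length, 28.3% held GAGGAA and 35.7% held GGGCGG, so both are common, and a match is a description of the letters only.

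Levels below are log2 processed intensity minus the 75th percentile of the same array, so that 0 is that percentile. Changes are differences of group means on this log2 scale, with the standard error of the limma fit and a p adjusted over all genes tested. A gene was called when the adjusted p was under 0.05. Between 57.6% and 67.2% of probes were well above background on an array. Arrays of the same group correlated at 0.995 to 0.998, and arrays of different groups at 0.955 to 0.985. All arrays lay on 1 slide. Slide row 1 held every 12-week array and row 2 every 24-week array, while chow was in columns 1 and 2 and high-fat diet in columns 3 and 4. Slide row and feeding time, and slide column and diet, therefore cannot be told apart. All 13 stromal markers with a probe, among them Pdgfra, Dcn and Lum, were well above background on all 8 arrays, as were 15 of 17 macrophage markers.

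High-fat feeding for 12 weeks went with higher RNA of the 5 phagocyte genes and lower RNA of Nox4, the last called on 1 of 2 probes. All 6 genes were called, 5 higher and 1 lower, where 31.3% of all genes were called in either direction, 13.7% higher and 17.6% lower. The 5 higher genes all changed by at least 2-fold, which 4.02% of all genes did in that direction. The median change of the 6 genes was 3.05, and the median over all genes was −0.03. The question asked by this comparison is the effect of diet in the animals that the labels call young.

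Among the membrane subunits, Cybb stood at 0.69 and 0.79 on the HF12 arrays, against −1.70 and −2.09 on the C12 arrays. This is a change of 2.63 ± 0.13, or 6.21-fold (adjusted p = 4.27e-05). Cyba, the partner that Nox4 shares, stood at 6.24 and 6.28 on the HF12 arrays, against 4.77 and 4.85 on the C12 arrays. Its change of 1.44 ± 0.08, or 2.72-fold (adjusted p = 8.07e-05), was the smallest of the 5. The groups did not overlap for either gene. With 2 arrays per group such separation is weak evidence, here and below. Its share over all genes was not counted for single comparisons. The second probe of each gene moved the same way, by 3.04 ± 0.08 for Cybb and 1.60 ± 0.08 for Cyba.

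Ncf1, Ncf4 and Rac2 changed more. Ncf1, the subunit whose phosphorylation starts assembly, stood at 0.77 and 0.75 on the HF12 arrays, against −4.01 and −3.84 on the C12 arrays. That is 25.8-fold on the used probe (4.69 ± 0.09, adjusted p = 1.95e-06), and 11 of the 29584 genes tested (0.0372%) changed by more in that direction. The other Ncf1 probe to a coding transcript changed less, by 4.30 ± 0.09 or 19.7-fold. A probe to a non-coding Ncf1 transcript was not well above background on the C12 arrays and passed the filter through HF12 alone. Its C12 mean of −8.52 lay below the lowest signal well above background on those arrays (−6.26 and −6.11). The size of its change is therefore not given. Ncf4, which binds a phosphoinositide of the phagosome membrane, stood at 3.55 and 3.52 on the HF12 arrays, against 0.05 and 0.08 on the C12 arrays, a change of 3.47 ± 0.05 (adjusted p = 1.69e-06). Rac2, the Rac GTPase of blood cells, stood at 2.61 and 2.58 on the HF12 arrays, against −1.09 and −0.91 on the C12 arrays, a change of 3.60 ± 0.08 or 12.1-fold (adjusted p = 2.32e-06). In each case the arrays of a group lay close together and far from the other group. The 95% intervals of Rac2 (3.41 to 3.78) and Ncf4 (3.34 to 3.59) overlapped, while those of Ncf1 (4.47 to 4.90), Cybb (2.32 to 2.95) and Cyba (1.24 to 1.65) overlapped no other.

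Nox4 went the other way. It stood at −3.19 and −3.15 on the HF12 arrays, against −2.56 and −2.64 on the C12 arrays, a change of −0.57 ± 0.06, which is 1.49-fold lower in HF12 (adjusted p = 0.00145). The arrays of the groups did not overlap. Of all genes, 2831 (9.57%) fell by more. The other Nox4 probe changed by −0.45 ± 0.22 and was not called (adjusted p = 0.175). In bulk RNA of this kind, fewer cells of a type and less RNA per cell cannot be told apart, for Nox4 or for the phagocyte subunits.

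**Figure D1:**
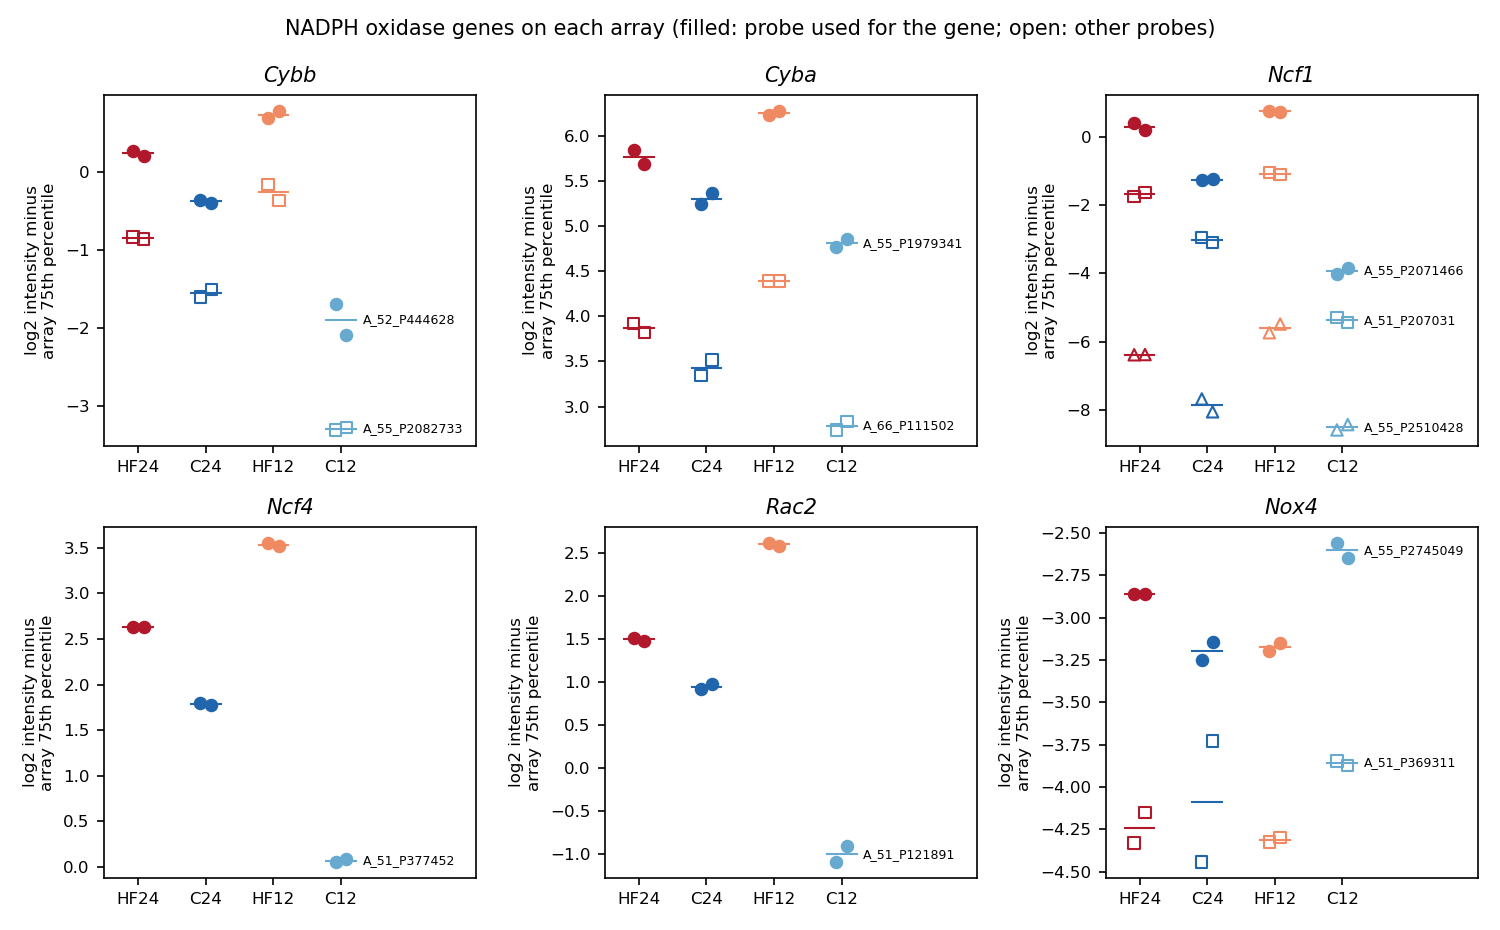
Levels of the 6 genes on each of the 8 arrays, as log2 intensity minus the array's 75th percentile, with 1 panel per gene and its own axis. Points are arrays, short lines are means of 2 arrays, filled symbols are the probe used for the gene and open symbols its other probes. The 5 phagocyte genes are highest on the HF12 arrays and lowest on the C12 arrays, while the used Nox4 probe is highest on the C12 arrays.

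After 24 weeks the diet difference of the phagocyte genes had the same direction and was smaller, and Nox4 was higher on the high-fat diet by 1 of its 2 probes. All 6 genes were called higher in HF24 than in C24, where 12.9% of all genes were called higher, 20.2% lower and 33.1% in either direction. Their median change was 0.58, against −0.01 over all genes. Only Ncf1 changed by at least 2-fold among the 6, and 1.36% of all genes did so in that direction.

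Cybb stood at 0.27 and 0.22 on the HF24 arrays, against −0.35 and −0.39 on the C24 arrays (0.62 ± 0.13, adjusted p = 0.0144). Without the first HF24 array, the first C24 array or the second C24 array, the adjusted p became 0.0647, 0.0553 or 0.0595. Its second probe gave 0.71 ± 0.08 (adjusted p = 0.00181). Cyba stood at 5.85 and 5.69 on the HF24 arrays, against 5.24 and 5.37 on the C24 arrays, a change of 0.46 ± 0.08 (adjusted p = 0.00802). The arrays of the groups did not overlap for either membrane subunit.

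Ncf1 stood at 0.40 and 0.22 on the HF24 arrays, against −1.26 and −1.23 on the C24 arrays, which is 2.95-fold (1.56 ± 0.09, adjusted p = 1.75e-04). Ncf4 stood at 2.63 and 2.64 on the HF24 arrays, against 1.80 and 1.78 on the C24 arrays (0.84 ± 0.05, adjusted p = 2.09e-04). Rac2 stood at 1.51 and 1.48 on the HF24 arrays, against 0.91 and 0.97 on the C24 arrays (0.55 ± 0.08, adjusted p = 0.00304). No array of 1 group reached the other group in any of these 3 genes. Ncf1 was thus the gene with the widest diet difference of the 6 at both times.

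Nox4 stood at −2.86 on both HF24 arrays, against −3.25 and −3.14 on the C24 arrays, a change of 0.34 ± 0.06 or 1.27-fold (adjusted p = 0.0102). This call rests on 1 of its 2 probes. The other probe stood at −4.33 and −4.15 on the HF24 arrays, against −4.44 and −3.73 on the C24 arrays, so that the groups overlapped. Its change was −0.16 ± 0.22 (95% interval −0.70 to 0.39, adjusted p = 0.632). With the mean of both probes, the change was 0.09 (adjusted p = 0.636). Leaving out the first HF24 array or the first C24 array also ended the call of the used probe, with adjusted p of 0.0540 and 0.0547.

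On chow, the later cells held more RNA of the 5 phagocyte genes and less of Nox4 than the earlier ones. All 6 genes were called between C24 and C12, 5 higher and 1 lower, where 46.5% of all genes were called, 24.5% higher and 22% lower. Of the 6, 4 were higher by at least 2-fold, beside 4.61% of all genes. Ncf1 changed most, by 2.68 ± 0.09 (6.40-fold). Rac2 changed by 1.94 ± 0.08, Ncf4 by 1.72 ± 0.05 and Cybb by 1.52 ± 0.13. Cyba again changed least, by 0.49 ± 0.08 (adjusted p = 0.00421), and 4231 genes (14.3%) changed by more in that direction. Nox4 was 1.51-fold lower in C24 than in C12 (−0.59 ± 0.06, adjusted p = 8.35e-04). Its other probe changed by −0.23 ± 0.22 (adjusted p = 0.442), with C24 arrays on either side of the C12 arrays, and the mean of both probes by −0.41 (adjusted p = 0.0484). The median over the 6 genes was 1.62, beside 0.02 over all genes.

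On the high-fat diet the directions were turned round. Between HF24 and HF12 the 5 phagocyte genes were called lower and Nox4 higher, where 46.6% of all genes were called, 25.5% lower and 21.1% higher. Rac2 was 2.15-fold lower in HF24 than in HF12, the single change of at least 2-fold among the 6, and 7.29% of all genes were called lower by at least 2-fold. Ncf4 fell by 0.90, Cybb by 0.50, Cyba by 0.49 and Ncf1 by 0.45, each with an adjusted p of 0.0224 or less. Cybb was the least secure of these. Leaving out any 1 of the 4 high-fat arrays ended its call, with adjusted p from 0.0656 to 0.104, although its second probe changed by −0.59 ± 0.08 (adjusted p = 0.00278). Nox4 changed by 0.32 ± 0.06 (adjusted p = 0.00977), and the mean of its probes gave 0.19 (adjusted p = 0.283). Without the first HF24 array or the first HF12 array the adjusted p of the used Nox4 probe became 0.0504 or 0.0565.

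Set in order, the 5 phagocyte genes shared 1 sequence of groups: HF12 highest, then HF24, then C24, then C12, with no array of 1 group reaching the next. Each step of that order is a comparison in which the gene was called. Over all genes 2.49% had arrays in this order without overlap, and 1.29% had all the calls that go with it. The used Nox4 probe had C12 highest, then HF24, with HF12 and C24 interleaved at the bottom. Group means of the other Nox4 probe ran C12, C24, HF24, HF12, with 1 C24 array (−3.73) above both C12 arrays.

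The change with diet differed between the feeding times for all 6 genes, tested as the diet change at 24 weeks minus that at 12 weeks, where 29.7% of all genes were called, 16.9% lower and 12.7% higher. It was −3.13 ± 0.12 for Ncf1, −3.04 ± 0.11 for Rac2, −2.63 ± 0.07 for Ncf4, −2.02 ± 0.18 for Cybb and −0.98 ± 0.12 for Cyba. For 4 of them this was lower by at least 2-fold, beside 7.16% of all genes. The adjusted p of these 5 lay between 4.39e-05 and 0.00208. For Nox4 it was 0.91 ± 0.09 (adjusted p = 0.00118), with 1443 of all genes (4.88%) higher. The mean of the Nox4 probes gave 0.60 (adjusted p = 0.0605), and its other probe alone gave 0.30 ± 0.31 (adjusted p = 0.522).

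**Figure D2:**
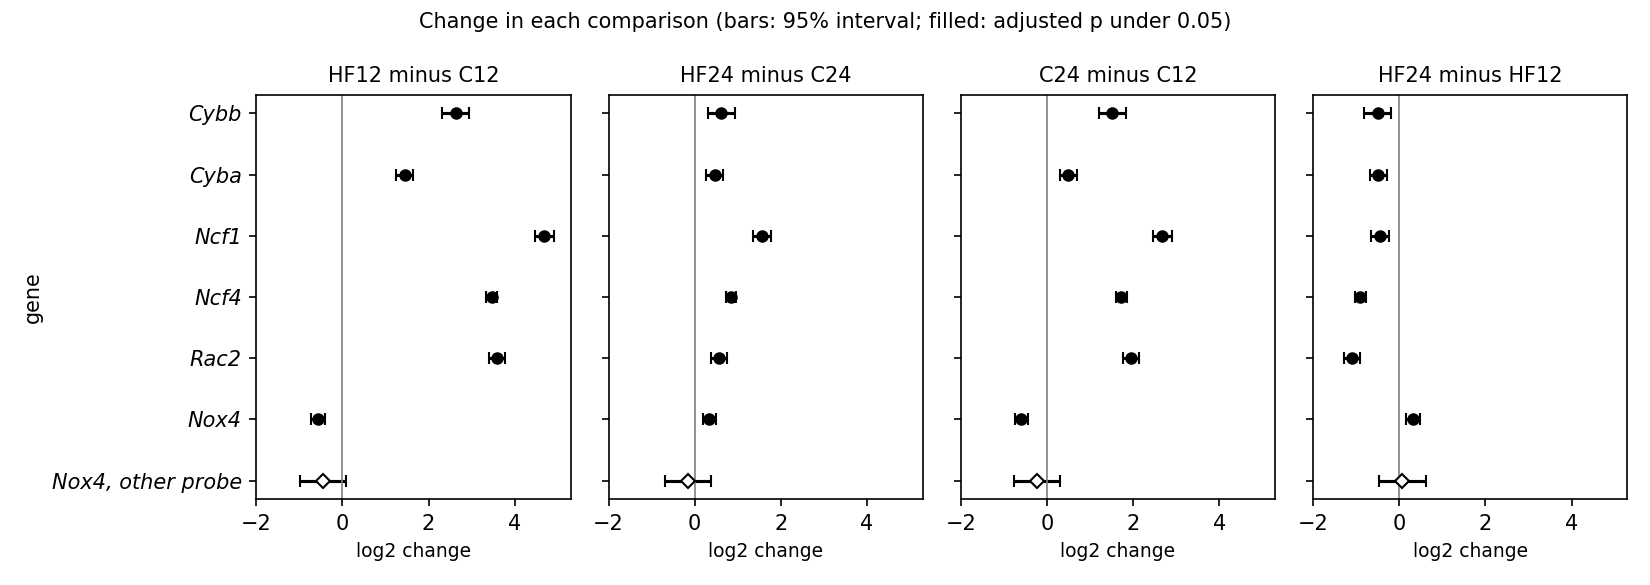
Log2 change of each gene (x axis) in the 4 comparisons, 1 panel each, taken as the panel title states. Points are fitted changes, bars 95% intervals, filled points have an adjusted p under 0.05, and the last line of each panel is the second Nox4 probe. The phagocyte genes lie right of 0 in the first 3 panels and left of 0 in the fourth, and the second Nox4 probe has an interval that holds 0 in all 4.

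Probes of a gene can be compared in their course over the arrays. Across the 8 arrays the 2 probes correlated at 0.992 for Cybb and 0.997 for Cyba, and the probes of Ncf1 to its coding transcripts at 0.997. These are descriptions over arrays that share 4 groups. The 2 Nox4 probes, which match different RefSeq transcripts of the gene, correlated at 0.53. The second Nox4 probe stood at −4.32 and −4.30 on the HF12 arrays, against −3.85 and −3.87 on the C12 arrays, the direction of the used probe (−0.45 ± 0.22, adjusted p = 0.175). Its 2 C24 arrays, −4.44 and −3.73, lay further apart than those of any other group. The third Ncf1 probe, to a transcript that RefSeq lists as non-coding, was well above background on both HF12 arrays only, at −5.74 and −5.49.

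The other genes of the oxidase family were mixed. Of 12 counted, 9 could be tested. In HF12, 2 of these were higher than in C12, 2 lower and 5 not called, with a median of −0.03. Rac3 was higher by 0.89 ± 0.09, and Cybc1, a chaperone of the membrane pair, by 0.52 ± 0.08. Duox1, a peroxide-making oxidase of epithelia, changed by −0.89 ± 0.08, and Duoxa1, its maturation factor, by −1.01 ± 0.12. Rac1, the widely expressed Rac that can serve Nox1 and NOX2, changed by 0.11 at 12 weeks and was not called. Between HF24 and C24, 1 of the 9 was higher and 1 lower, and the median was 0.17. Both calls, those of Rac1 (0.19) and Noxo1 (−0.26), were lost under quantile normalization, with adjusted p of 0.109 and 0.190, and leaving out 1 array ended that of Rac1 for 6 of the 8 arrays and that of Noxo1 for 4. Nox3 was not well above background on any array.

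Genes that carry signals to the phagocyte oxidase moved with it. All 15 listed were called higher in HF12 than in C12, with a median of 3.03, and 13 of 15 were higher in HF24 than in C24, with a median of 0.70. The activating antibody receptors Fcgr1 and Fcgr3 were higher by 4.47 ± 0.06 and 3.50 ± 0.06 at 12 weeks, the kinase Syk by 2.81 ± 0.06 and the phospholipase Plcg2 by 3.03 ± 0.06. At 24 weeks the changes were 1.89 ± 0.06 for Fcgr1, 0.70 ± 0.06 for Fcgr3 and 1.05 ± 0.06 for Plcg2, and 0.90 ± 0.06 for Prex1, an activator of Rac GTPases. Between HF24 and HF12 all 15 were lower, with a median of −0.67. In the test of the diet change between times all 15 were lower too, with a median of −2.44. Between C24 and C12, 14 were higher and Hvcn1, a proton channel that balances the charge moved by the oxidase, was lower.

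Transcription factors known to act on the phagocyte oxidase genes in blood cells were split. Of 6, 3 were higher and 2 lower in HF12 than in C12, with a median of 1.73, or 1.26 with Cebpe at its bound. Irf8 was higher by 3.51 ± 0.07, and Spi1, which encodes PU.1, by 3.76 ± 0.42 with 1 of the C12 arrays not well above background, or by 2.07 after normexp background correction. Cebpe was at least 6.00-fold higher, since neither C12 array was well above background, and this bound sets the HF12 mean against the lowest signal well above background on each C12 array, or the probe's own signal where that is higher. Cebpa changed by −0.69 ± 0.11. Between HF24 and C24, 3 were higher and none lower. Irf8 changed by 1.40 ± 0.07 and Irf1 by 1.22 ± 0.08. Spi1 changed by 0.89 ± 0.42 (adjusted p = 0.159). Cebpe changed by 1.81 ± 0.47, with 1 C24 array not well above background, and its adjusted p of 0.0312 became 0.0659 with no filter on dim probes, 0.0828 with only the groups compared and 0.0512 with replicate number as a block. Without the first C24 array, the one not well above background, the change was 1.15 (adjusted p = 0.0794), and after normexp it was 0.75. Leaving out either HF24 array or either HF12 array also ended the call, with adjusted p from 0.0585 to 0.102.

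Enzymes that clear superoxide and peroxide showed no shared direction. Between HF12 and C12, 2 of 17 were higher and 7 lower, with a median of −0.04. Gpx1, a glutathione peroxidase, was higher by 1.05 ± 0.08. Sod2, the mitochondrial superoxide dismutase, changed by −1.04 ± 0.07, Cat, the catalase, by −0.77 ± 0.08 and Prdx3, a mitochondrial peroxiredoxin, by −0.56 ± 0.05. Between HF24 and C24, 3 were higher and 4 lower, with a median of 0.07. The changes were 0.30 for Gpx1, −0.26 for Sod2 and 0.28 for Prdx3, and with only the groups compared these 3 calls were lost, with adjusted p of 0.0591, 0.0752 and 0.0516. Leaving out 1 array ended the call of Gpx1 for 5 of the 8 arrays, that of Sod2 for 4 and that of Prdx3 for 2.

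TGF-beta is known to raise Nox4 in fibroblasts, so its ligands and response genes were listed beside it. Of 13, 7 were higher and 2 lower in HF12 than in C12, where the used Nox4 probe was lower, with a median of 0.33. Tgfbi led with 2.16 ± 0.06, and Ltbp2 followed with 1.06 ± 0.07. Group means of Tgfbi were 4.66 in HF12, 4.31 in HF24, 3.34 in C24 and 2.49 in C12, the order of the phagocyte genes. Between HF24 and C24, where the used Nox4 probe was higher, 4 of the 13 were higher and 1 lower, with a median of 0.10. Between C24 and C12, where the used Nox4 probe was lower again, 11 were higher and none lower, with a median of 0.60. Between HF24 and HF12, where that probe was higher, 8 were higher and 2 lower, with a median of 0.30. The part of TGF-beta in the Nox4 values was not tested.

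**Figure D3:**
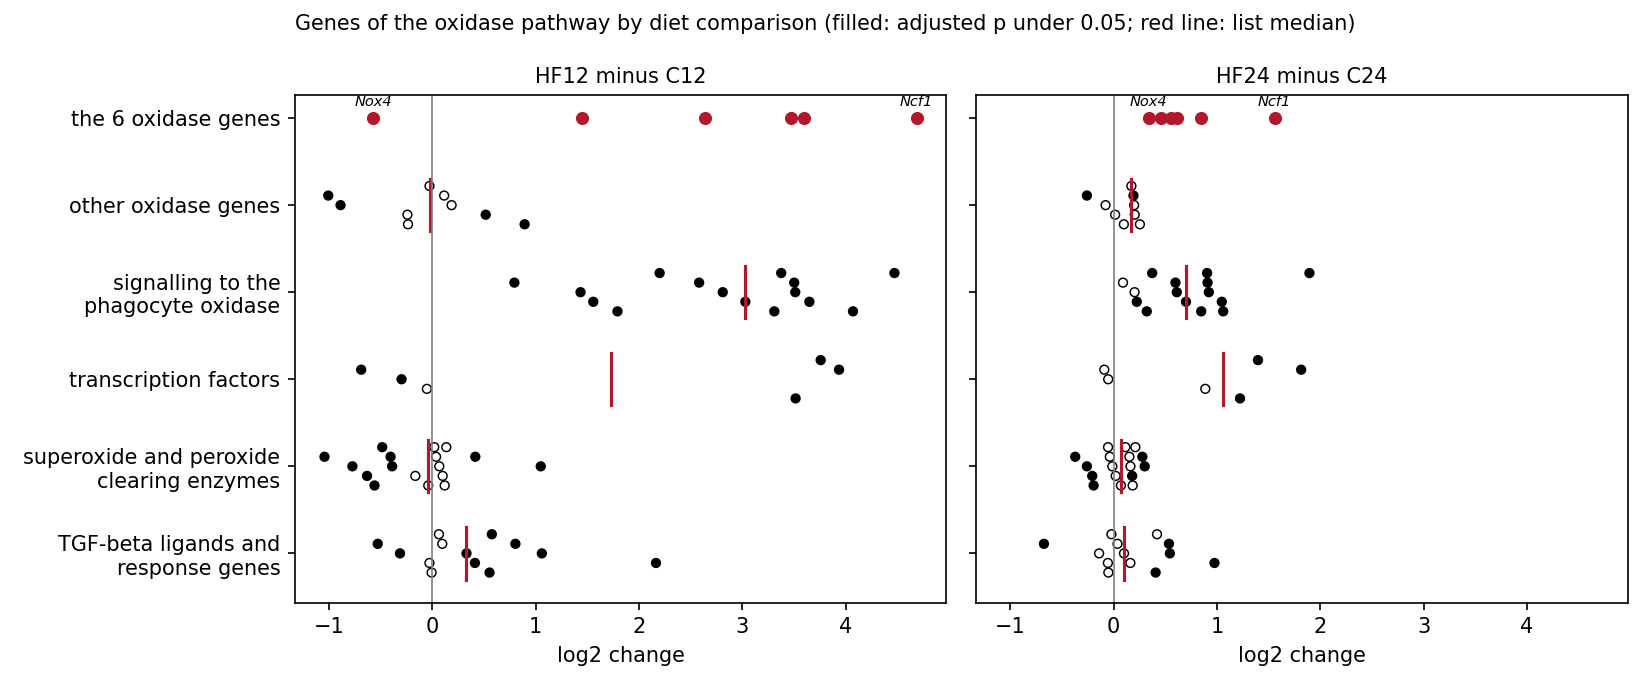
Fitted log2 change (x axis) of the 6 oxidase genes and of the tested genes of 5 pathway lists (vertical axis), HF12 minus C12 on the left and HF24 minus C24 on the right. Each point is a gene, filled points have an adjusted p under 0.05 (the 6 oxidase genes, in red, all do), and red lines are list medians. The signalling list lies right of 0 in both panels, with medians of 3.03 and 0.70, and the clearing enzymes lie around 0.

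Most macrophage markers had the directions of the 5 phagocyte genes, with exceptions given here. Of 17, 16 were higher in HF12 than in C12 and none lower, with a median of 3.64, and 13 were higher and 1 lower in HF24 than in C24, with a median of 0.96. The lower one was Itgam (−0.36 ± 0.07, adjusted p = 0.0102), which was not called between HF12 and C12. Mrc1, Mertk and Cd163 were not called between HF24 and C24. Cx3cr1, a chemokine receptor, was at least 64.2-fold higher in HF12 than in C12 and at least 25.5-fold higher in HF24 than in C24, since it was not well above background on the chow arrays. Aif1 was higher by 4.81 ± 0.06 and the complement gene C1qb by 4.28 ± 0.06 at 12 weeks. The summed intensity of the 17 genes, in multiples of the array's 75th percentile, was 303 and 297 on the HF12 arrays, against 51.8 and 52.9 on the C12 arrays. It was 225 and 221 on the HF24 arrays, against 114 and 118 on the C24 arrays. This is the order of the 5 phagocyte oxidase genes. Between C24 and C12, 15 were higher and none lower, with a median of 1.94. Between HF24 and HF12, where the 5 oxidase genes were lower, 12 markers were lower and 3 higher, with a median of −0.34. The 3 were C1qa (0.76 ± 0.09), Aif1 (0.60 ± 0.06) and C1qc (0.26 ± 0.07), named after their values were seen. No macrophage marker was at background on every array. The part of these markers in the result was not tested.

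Markers of other cell types did not move as one. Of 8 neutrophil markers tested, 4 were higher and 1 lower in HF12 than in C12, with a median of 0.26, and 5 were higher and 1 lower in HF24 than in C24, with a median of 0.39. The neutrophil genes Cxcr2, Ngp and Retnlg were not well above background on any array. S100a9, not well above background on the C24 arrays, was at least 38.2-fold higher in HF24 than in C24. S100a8 was higher in HF24 than in C24 by 1.63 ± 0.09, but C24 was its low group. It stood at −0.96 and −1.02 on the HF24 arrays, against −2.62 on both C24 arrays. Its levels were −0.98 and −0.77 on the HF12 arrays and −0.93 and −1.08 on the C12 arrays. Between C24 and C12 it changed by −1.62 ± 0.09. The marker called lower in HF24 than in C24 was Csf3r (−0.54 ± 0.07). The summed intensity of the neutrophil list was 57.5 and 60.2 on the HF12 arrays, against 68.1 and 65.7 on the C12 arrays, and 43.6 and 46.5 on the HF24 arrays, against 64.6 and 60.3 on the C24 arrays. A single gene, Csf3r, carried 92.0% to 96.8% of this sum. Without it the sum was 2.74 and 2.84 on the HF12 arrays, against 2.45 and 2.39 on the C12 arrays, and 3.50 and 3.51 on the HF24 arrays, against 2.09 and 2.13 on the C24 arrays. Of 8 lymphocyte markers tested, none were called between HF12 and C12, and 3 were higher in HF24 than in C24, with 5 not called. The 3 were Nkg7 (2.72 ± 0.16), Cd2 (1.15 ± 0.15) and Cd3d (0.92 ± 0.07). The summed intensity of the 8 markers lay between 2.71 and 3.44 on all 8 arrays, and Cd3e alone carried 45.9% to 52.5% of it. In HF24 the mean level was 0.67 for Cd3e and 0.45 for Cd4, neither of them called. It was −2.60 for Nkg7, −3.82 for Cd2 and −2.94 for Cd3d, so the sum says little about these 3. Cd8a and Ms4a1 were not well above background on any array.

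Stromal markers, of the kind of cell in which Nox4 is known, were lower in part. Of 13 tested, 2 were higher and 6 lower in HF12 than in C12, with a median of −0.19, and 1 was higher and 5 lower in HF24 than in C24, with a median of −0.05. Nt5e changed by −3.31 ± 0.09 and Lum by −1.92 ± 0.10 at 12 weeks, and Lum by −1.92 ± 0.10 at 24 weeks. Alcam had the largest rise of the list at 12 weeks, a change of 1.88, with means of 3.27 in HF12 and 1.39 in C12. Summed stromal intensity was 927 and 956 on the HF12 arrays, against 1056 and 1042 on the C12 arrays. It was 937 and 970 on the HF24 arrays, against 1025 and 1033 on the C24 arrays. The used Nox4 probe was lower where this sum was lower at 12 weeks, and higher where it was lower at 24 weeks, and the part of stromal content in the Nox4 values was not tested. Of 7 endothelial markers, 1 was higher and 4 lower in HF12 than in C12, and 4 were higher and none lower in HF24 than in C24. Of 6 smooth muscle and pericyte markers, 3 were higher and none lower in HF12 than in C12, and 3 were higher and 1 lower in HF24 than in C24.

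**Figure D4:**
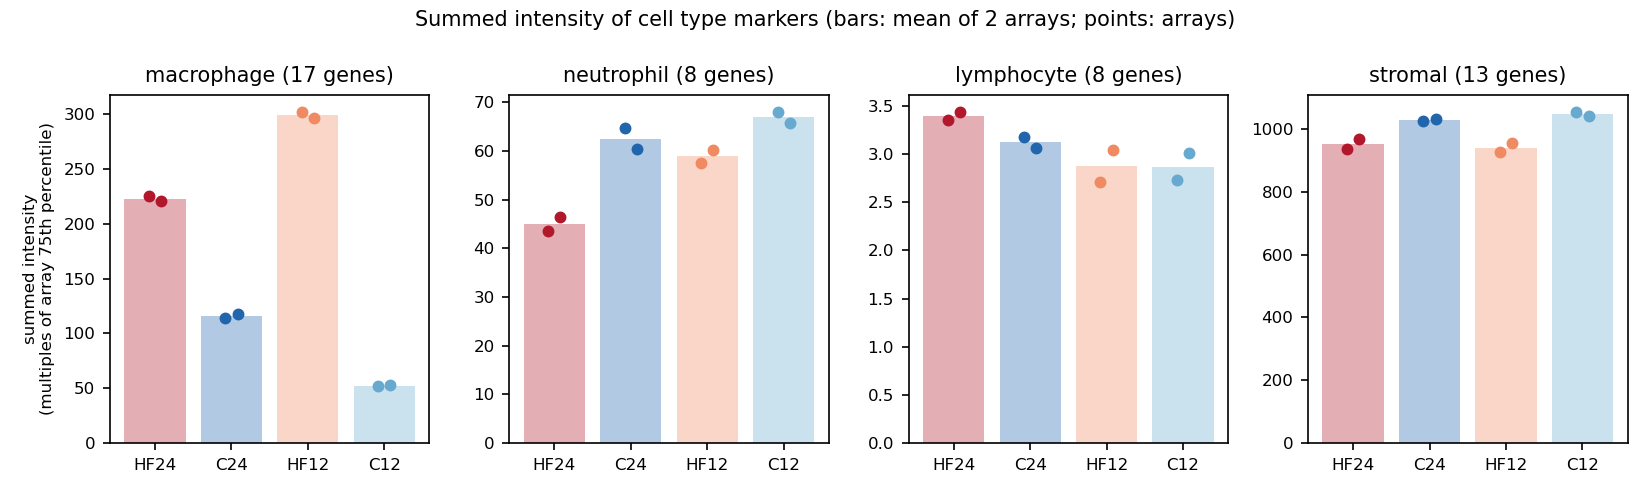
Summed intensity of the tested markers of 4 cell types by group, in multiples of the array's 75th percentile (vertical axis, from 0, with its own scale per panel). Bars are means of 2 arrays and points are arrays. The macrophage sum runs from 51.8 on a C12 array to 303 on an HF12 array, the neutrophil sum is 92.0% or more Csf3r, and the stromal sum lies between 927 and 1056.

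The genes whose course was most like that of Cybb were Abcg3 (Pearson r = 0.998 over the 8 arrays), Lrrc25 (0.997), Adam8, Xlr4b and Adgre1 (each 0.996), among 3301 named genes whose values had a standard deviation of at least 0.5 over the arrays. Adgre1 encodes the macrophage surface protein F4/80. With Cybb, 330 of the 3301 genes (10.0%) had an r above 0.95, and with Nox4 7 did (0.212%). Most like the used probe of Nox4 were AW112010 (0.987), Akr1c18 (0.980), Hcar2 (0.979), Apol6 (0.978) and Tspan12 (0.971). With the second Nox4 probe the r of these 5 genes was between 0.419 and 0.574. Among themselves the 5 phagocyte genes correlated at 0.951 to 0.996, and with Nox4 at −0.770 to −0.624. These values describe 8 arrays in 4 groups, and all points share the group means.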

How the data were processed

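Total RNA of 8 samples was labelled with Cy3 and hybridised to Agilent 8x60K mouse arrays. Agilent Feature Extraction 11.0.1.1 read all arrays, per the submitters' processing notes. A deposited processed intensity is the background-subtracted brightness of a spot within its own array, and the deposited median and background intensity are unprocessed, per the file headers. A second table from the authors holds log2 values for 38475 probes. A column of it equals log2 processed intensity with an array's own constant added (−9.99 to −9.79), without centring of genes, and the rule behind the constants is not given in the sources used here. Deposited flag columns, a score of 0 or 1 per spot, gave outliers and spots well above background.

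Of 56605 probes, 192 with no unflagged spot on some array were left out. Log2 processed intensity minus the array's 75th percentile was used. Probes well above background on both arrays of at least 1 group were kept (37649), and the brightest represented its gene (29584 tested, 16732 with a symbol). Accessions were matched to RefSeq names for GRCm38.p6, which gave 1 symbol for 32907 probes (58.3%). The headers name another build, so only promoter coordinates, from RefSeq, are printed.

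Group means (4) were fitted with limma 3.58.1 under R 4.3.3, with 4 residual and 1.87 prior degrees of freedom, two-sided and Benjamini-Hochberg adjusted over all genes within each of 5 comparisons. The fit was tested on simulated data. Genes named are the 6 members in every comparison, up to 4 called genes per list by smallest p, and the 5 genes most like Cybb and Nox4. The members and lists were chosen with earlier results of these data known. Rac1 and Hvcn1 at single comparisons, Spi1 at 24 weeks, and the macrophage markers given as exceptions were named after their values were seen. One gene of the list of other oxidase genes is not reported here and enters none of that list's counts.

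Alternatives were normexp with an offset of 50 and quantile normalization, quantile normalization alone, the authors' table, no filter, a filter on all 8 arrays, the mean of kept probes, an intensity trend, only the groups compared, a replicate block and each array left out. The files hold no mean signal, so normexp used the median. Correlations of deviations between same-numbered arrays lay between −0.0819 and 0.166 over 6 pairs of groups. The main fit used no pairing, and these values cannot exclude one, since array noise can hide it. Python 3.11.15, pandas 2.3.3 and matplotlib 3.10.9 were used.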

Additional observations from a re-analysis of the deposited data

Results flagged for a closer look

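For each of the 6 oxidase genes the diet change differed between the feeding times by the test of the difference itself, the change at 24 weeks minus that at 12 weeks in the limma fit. On the log2 scale the difference was −3.13 for Ncf1, −3.04 for Rac2, −2.63 for Ncf4, −2.02 for Cybb and −0.98 for Cyba. The 5 phagocyte genes were called in all 16 alternatives that gave this test. For Nox4 the difference was 0.91, with a diet change of 0.34 at 24 weeks and −0.57 at 12 weeks, on 1 of its 2 probes. The second probe gave a difference of 0.30 ± 0.31, with −0.16 at 24 weeks and −0.45 at 12 weeks, so the turn of direction was not seen on it. The mean of both probes gave a difference of 0.60 (adjusted p = 0.0605), with 0.09 at 24 weeks (adjusted p = 0.636). In groups of 2 arrays no array could be tested as standing apart from its group.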

How the results depend on the processing

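Over all alternatives, 490 values of the 6 oxidase genes kept their direction and their side of the threshold, 14 kept the direction and lost the call, and none reversed. The losses are those of Cybb and Nox4 given above. Of the other named genes 4175 values kept direction and call, 132 lost the call and none reversed. With each array left out in turn, 6 oxidase genes were called between HF12 and C12, between C24 and C12 and in the test between times, and 4 to 6 between HF24 and C24 and between HF24 and HF12. The 9263 genes called between HF12 and C12 became 5440 to 8810, with 6077 without the first C12 array, 5440 without the first HF12 array and 5825 without the second. With replicate number as a block 6 oxidase genes were called in every comparison. Of all 29584 genes, 8041 were then called between HF12 and C12 and 8717 between HF24 and C24. The block left 12772 called between C24 and C12, 12649 between HF24 and HF12 and 7611 in the test between times. The block changed no call of an oxidase gene. No filter on dim probes moved the median of all genes between C24 and C12 to 0.15 and the share of calls that were higher to 67.7%, against 52.8% with the filter, and between HF24 and HF12 the median to 0.10 and the share to 63.4%, against 45.3%. The slide layout, 2 arrays per group and the disagreement of the Nox4 probes limit these results.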

Other observations

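Ncf4 and Rac2 lie on the same chromosome (15), with 16 genes between them in the RefSeq order for GRCm38.p6, and the 10 of these that were tested were looked at after the values of Ncf4 and Rac2 were seen. Between HF12 and C12, 4 of the 10 were called higher and 2 lower, and between HF24 and C24 4 were called higher and none lower. Csf2rb and Csf2rb2 encode beta chains of cytokine receptors of myeloid cells and are close copies of each other, so that a probe may not tell them apart. Between HF12 and C12 these 2 genes changed by 2.64 ± 0.05 and 2.71 ± 0.06. They changed by −0.85 ± 0.05 and −0.89 ± 0.06 between HF24 and HF12, the directions of Ncf4 and Rac2. Tst, which encodes a mitochondrial sulfurtransferase in the same stretch, changed by −2.23 ± 0.14 between HF12 and C12. The stretch between the oxidase genes thus held genes that moved in both directions.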
